A study of Mus musculus with 2 samples.

Results

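The mitochondrial calcium uniporter genes described here are 5 rows of a table of 14425 genes: Mcu, Ccdc109b (an older name of Mcub), Micu2, Micu3 and Smdt1. They were taken by name, and all 5 were found. They had been selected on their levels in these same cells, by library and by Lypd1 and Calb2 level, so those values are a description, with no test. The cells were mouse spiral ganglion neurons, the neurons that carry signals from the hair cells of the cochlea to the brain, sorted for the red reporter tdTomato and sequenced as 2 single-cell 3′ libraries, 1 per genotype. The iCON library (Runx1-CreER/+; Ai14/+) held 462 cells, and the iCKO library (Runx1-CreER/Runx1F; Ai14/+) held 407. Animals of both genotypes carried a tamoxifen-inducible Cre and the Cre-dependent Ai14 reporter, received tamoxifen at P1 and were used between P27 and P29, with both sexes in each library. The iCKO genotype adds the Runx1F allele. How many animals went into a library is not given in the sources used here. With 1 library per genotype, a genotype difference cannot be told apart from a difference between libraries, and cells of 1 library are not replicates.

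The uniporter is the channel of the inner mitochondrial membrane through which calcium enters the matrix, where it stimulates dehydrogenases of the citric acid cycle. MCU forms the pore, MCUB is a related pore subunit that lowers the channel's uptake, SMDT1 (also named EMRE) joins the pore to its gatekeepers, and EF-hand proteins, among them MICU2 and MICU3, set the calcium level at which it opens, MICU3 being the one enriched in neurons. Type I spiral ganglion neurons fall into subtypes Ia, Ib and Ic, for which Calb2 (a calcium buffer, calretinin) marks Ia and Lypd1 (a Ly6 family prototoxin) marks Ic. Type II neurons, which contact outer hair cells, are a small separate class.

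In the mm10 assembly (GRCm38), GENCODE M21 places Ccdc109b as Mcub on chromosome 3 from 129914960 to 129970206 on the minus strand, and Mcu, its paralogue, on chromosome 10 from 59446984 to 59616692 on the minus strand. Micu2 lies on chromosome 14 from 57916261 to 57999262 on the minus strand, Micu3 on chromosome 8 from 40307458 to 40386308 on the plus strand, and Smdt1 on chromosome 15 from 82338959 to 82349091 on the plus strand. No transcript of another gene matched Mcu, Ccdc109b or Micu2 over at least 100 bases at 90% identity. Micu3 shared 204 bases with Fgf20, which overlaps its start on the opposite strand, and Smdt1 shared 131 bases with Pheta2, which overlaps it on the same strand and ends before its 3′ end. Whether the counting used strand is not given in the sources used here.

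RefSeq promoter sequences (GRCm38.p6) were matched for 4 of the 5 genes, and those of Ccdc109b, Mcu and Smdt1 are shown as the 250 bases before the RefSeq start of the gene, because Ccdc109b and Mcu are paralogues of which only the first was past the threshold used below between cells of different Lypd1 level, and Smdt1 was the member higher in the iCKO library in every range of cells. They lie at chr3:129970207-129970456 (minus strand), chr10:59616693-59616942 (minus strand) and chr15:82345796-82346045 (plus strand), and are written 5′ to 3′ on the strand of the gene. The RefSeq start of Smdt1 lies inside the longer span that GENCODE gives the gene, so its window is not before the GENCODE start. Capitals mark matches, on either strand, to CCAAT (the CCAAT box), GGGCGG (the SP/KLF core), TGACGTCA (the cyclic AMP response element), TGTGGT (a RUNX core) or TATAAA (the TATA box).
Ccdc109b: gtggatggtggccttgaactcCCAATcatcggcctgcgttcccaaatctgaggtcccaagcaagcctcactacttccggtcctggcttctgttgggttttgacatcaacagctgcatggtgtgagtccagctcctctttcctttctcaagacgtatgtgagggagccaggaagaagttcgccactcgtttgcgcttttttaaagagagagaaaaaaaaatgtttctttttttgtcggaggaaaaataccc
Mcu: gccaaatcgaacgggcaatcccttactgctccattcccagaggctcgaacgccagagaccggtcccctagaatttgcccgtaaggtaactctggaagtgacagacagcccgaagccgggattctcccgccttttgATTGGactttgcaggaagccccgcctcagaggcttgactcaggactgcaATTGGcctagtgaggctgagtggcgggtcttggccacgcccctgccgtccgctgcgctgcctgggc
Smdt1: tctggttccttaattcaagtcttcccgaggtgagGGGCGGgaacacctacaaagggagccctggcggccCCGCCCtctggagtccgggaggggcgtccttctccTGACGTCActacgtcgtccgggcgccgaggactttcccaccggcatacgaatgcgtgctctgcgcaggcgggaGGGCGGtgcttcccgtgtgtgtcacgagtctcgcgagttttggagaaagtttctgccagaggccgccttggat
Neither TGTGGT nor TATAAA occurred in these windows or in that of Micu2. TGTGGT occurred in 14.0% and TATAAA in 12.4% of 32851 promoters of the same length. The Ccdc109b promoter held 1 match to CCAAT, 48.0% G or C and 8 CpG, and the Mcu promoter 2 matches to CCAAT, 60.8% G or C and 15 CpG, where 33.8% of all promoters held CCAAT. The Smdt1 promoter held 3 matches to GGGCGG (in 32.7% of all promoters), 1 to TGACGTCA (in 1.55%), 63.2% G or C and 23 CpG. The median promoter had 52.4% G or C and 6 CpG. These matches are letters in a sequence and say nothing of binding.

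The iCON library held 22011292 UMIs (unique molecular identifiers, here each 1 counted RNA molecule) and the iCKO library 13743824, with medians of 49725.5 and 33602 UMIs per cell and no cell barcode in common. Of 6 neuronal marker genes, 5 were each found in at least 90% of cells in both libraries. The 1 myeloid gene listed of 4 and the 1 endothelial gene listed of 2 averaged at most 0.00238 UMIs per 10000, 4 fibroblast or bone genes summed to 1.07 and 0.790, and 3 hair cell genes to 0.0464 in the iCON and 0.565 in the iCKO library. In the 38 iCKO cells with under 10 Calb2 UMIs per 10000, the hair cell genes summed to a mean of 5.61 and a median of 0. Their mean was 0.0393 in the 227 iCKO cells with at least 100. In the iCON library these means were 0.0780 and 0.0208. The 38 cells are the Calb2-poor group of the iCKO ratios by Calb2 below. The part of hair cell RNA in those ratios was not tested. The summed level of 8 glial markers averaged 37.2 UMIs per 10000 in the iCON library and 19.1 in the iCKO library, and cells with low myelin-gene RNA (under 2 UMIs per 10000 over 6 genes) made up 21.9% and 37.1%. Cells with Xist and no Y-linked RNA made up 54.5% and 78.4%. Runx1 RNA averaged 0.867 UMIs per 10000 in the iCON library and 1.12 in the library labelled iCKO, so it was not lower there. Which exons Runx1F removes is not stated, and 3′ tags outside them check nothing. Lypd1 averaged 16.0 in the iCON library against 10.3 in the iCKO library, and Calb2 58.1 against 133.

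Levels are given as the mean over cells of UMIs per 10000 UMIs of a cell. Comparisons are log2 ratios of these means with a pseudocount of 0.05, which pulls ratios of low genes towards 0. Beside them stands the 95% counting interval of the ratio of summed UMIs without a pseudocount, which covers counting error only and can lie beyond the log2 ratio when a count is small. A log2 ratio beyond 0.5 in either direction is called past the threshold. Levels of different genes are not compared as amounts of RNA, since 3′ capture differs between genes. Where a gene with the most UMIs of a list is named, it is for its precision.

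The inhibitory pore subunit gene Ccdc109b was the member past the threshold between cells of different Lypd1 or Calb2 level. It was near 0 in cells with little Lypd1 and near 1 UMI per 10000 in cells with much Lypd1, in both libraries. Mcu, Micu2, Micu3 and Smdt1 lay within a log2 ratio of 0.2 between the same cells. In the iCON library Ccdc109b averaged 0.0216 UMIs per 10000 (18 UMIs) in 256 cells with under 1 Lypd1 UMI per 10000, 0.256 (31 UMIs) in 26 cells with 1 to under 10, and 1.03 (906 UMIs) in 180 cells with at least 10. In the iCKO library it averaged 0.0154 (13 UMIs) in 261 cells, 0.645 (44 UMIs) in 20 cells and 0.844 (347 UMIs) in 126 cells. In the lowest range of the iCON library, 13 of the 18 UMIs came from 30 type II-like cells and the other 226 cells held 5 UMIs, a mean of 0.00529. In that of the iCKO library, 2 came from 7 type II-like cells and 11 from the other 254. Counting intervals of the lowest range did not reach those of the other ranges in either library, whereas the middle range rests on few cells.

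The log2 ratio of Ccdc109b between the highest and the lowest Lypd1 range was 3.91 in the iCON library (counting interval 5.42 to 6.85) and 3.77 in the iCKO library (5.01 to 6.73). It stood at rank 2 of 8545 genes with a mean of at least 0.1 UMIs per 10000 in both libraries. It was the only member past the threshold, 1 of 5, where 2.83% of those genes were past it in the same direction in the iCON library and 2.74% in the iCKO library. The genes had been picked with this contrast known, so nothing is read from that count. The minimum of 0.1 was set after seeing the data, because the minimum chosen first (a mean of 0.5 and a UMI in 25% of cells) left only Micu3 and Smdt1.

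**Figure D1:**
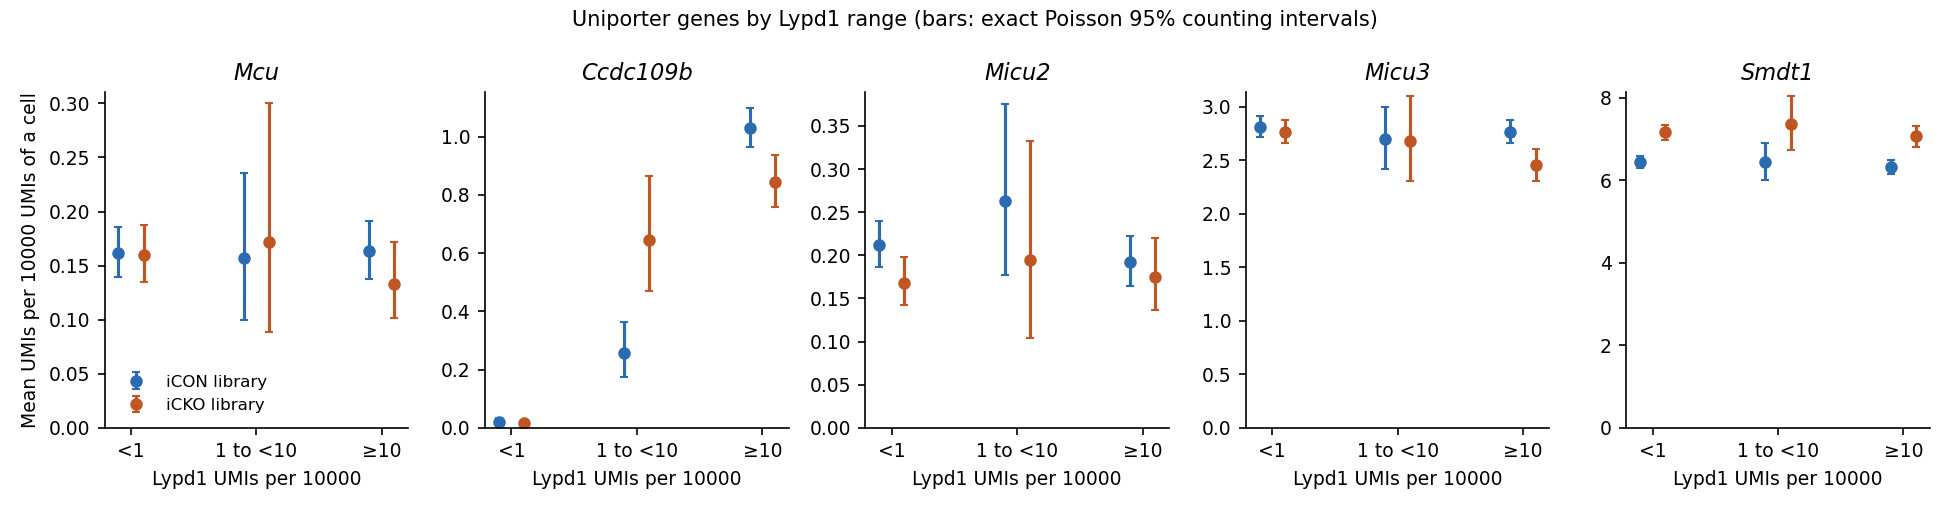
Mean UMIs per 10000 of each uniporter gene (vertical axes, one scale per gene, from 0) in cells of 3 Lypd1 ranges (horizontal axes, UMIs per 10000), for the iCON library (blue) and the iCKO library (orange). Bars are exact Poisson 95% counting intervals scaled to the mean. Ccdc109b goes from 0.0216 to 1.03 in iCON cells and from 0.0154 to 0.844 in iCKO cells, and the other genes differ less, Micu3 going from 2.77 to 2.45 in iCKO cells.

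Ccdc109b was also seen in more of the Lypd1-rich cells. At full depth 95.6% of iCON cells and 86.5% of iCKO cells with at least 10 Lypd1 UMIs per 10000 held a Ccdc109b UMI, against 5.86% and 3.45% of cells with under 1 (2.21% and 2.76% without type II-like cells), at median depths of 50681 and 33944.5 against 47665 and 33602 UMIs. After each cell was thinned to 20000 UMIs, the shares in the Lypd1-rich cells were 78.7% (exact binomial interval 71.9% to 84.4%) in the iCON library and 72.8% (64.1% to 80.4%) in the iCKO library, and in the Lypd1-poor cells 4.35% and 3.08%. Cells rich in Calb2 and poor in Lypd1 gave the background: in 85 such iCON cells no Ccdc109b UMI was found, which allows a level of up to 0.00671 UMIs per 10000 at 3 counts, and in 201 such iCKO cells 8 UMIs were found in 5 cells. Type II-like cells, whose Lypd1 and Calb2 were both low, held 15 Ccdc109b UMIs in 37 cells, a mean of 0.141 UMIs per 10000. They were called as 1 whole cluster, not cell by cell. The mean log2 ratio of 6 type II markers over other cells was 3.53 in it, and 4 of the 6 were found in at least 10% of its cells. The cluster held 30 cells of the iCON library and 7 of the iCKO library.

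**Figure D2:**
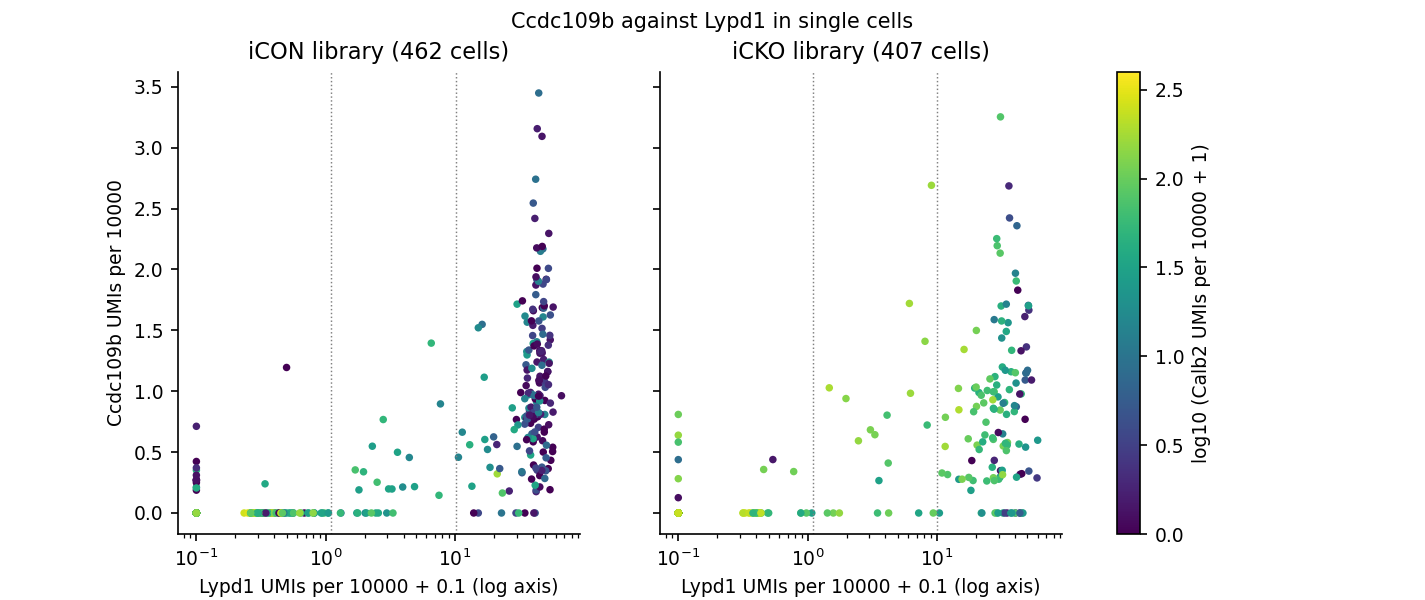
Ccdc109b UMIs per 10000 (vertical axis) against Lypd1 UMIs per 10000 plus 0.1 (horizontal log axis) in each of the 462 iCON and 407 iCKO cells, coloured by log10 of Calb2 UMIs per 10000 plus 1. Dotted lines mark Lypd1 levels of 1 and 10; most cells with Ccdc109b lie right of the second line, at low Calb2 in the iCON library and at intermediate to high Calb2 in many iCKO cells.

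Within the Lypd1-rich cells Ccdc109b varied less with Lypd1. In bands of 10 to under 30, 30 to under 50 and at least 50 Lypd1 UMIs per 10000 (bands drawn after seeing the data), Ccdc109b averaged 0.527, 1.10 and 1.09 in 23, 130 and 27 iCON cells, and 0.698, 0.943 and 1.07 in 55, 63 and 8 iCKO cells. Over all cells with at least 10, there were 2.53 Ccdc109b UMIs per 100 Lypd1 UMIs in the iCON library (exact Poisson interval 2.37 to 2.70) and 2.57 in the iCKO library (2.31 to 2.86). The log2 ratio of these 2 rates was 0.02, with a counting interval of -0.16 to 0.20. The rate was not constant over the bands, at 2.72, 2.65 and 2.04 in the iCON library and 3.06, 2.41 and 1.96 in the iCKO library, and the libraries filled the bands differently, so the pooled rates depend on that mix.

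By Calb2, Ccdc109b ran the other way. In the iCON library it averaged 0.887 UMIs per 10000 in 172 cells with under 10 Calb2 UMIs per 10000, 0.218 in 204 cells with 10 to under 100 and 0.00374 (3 UMIs, all in 1 cell) in 86 cells with at least 100. In the iCKO library it averaged 0.774 in 38 cells, 0.495 in 142 cells and 0.104 (82 UMIs in 28 cells) in 227 cells. The levels therefore overlapped between libraries in the lowest Calb2 range and stood apart in the other ranges. The log2 ratio of Calb2-rich over Calb2-poor cells was -4.12 in the iCON library (counting interval -9.45 to -5.61) and -2.42 in the iCKO library (-3.35 to -2.46). Ccdc109b was 1 of 5 members past the threshold downwards, where 8.04% of 8545 genes were so in the iCON library and 10.0% in the iCKO library.

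Most Ccdc109b UMIs of Calb2-rich iCKO cells, 74 of 82, came from those with at least 1 Lypd1 UMI per 10000. Among the 227, the 201 with under 1 Lypd1 UMI per 10000 averaged 0.0121 Ccdc109b UMIs per 10000, and the 26 with at least 1 averaged 0.812 (74 UMIs in 23 cells). In the iCON library only 1 of the 86 Calb2-rich cells held at least 1 Lypd1 UMI per 10000. At intermediate Calb2, Lypd1-rich cells averaged 0.944 Ccdc109b against 0.00725 in Lypd1-poor cells in the iCON library (39 and 139 cells), and 0.824 against 0.0112 in the iCKO library (82 and 52 cells). These are log2 ratios of 4.12 and 3.84, beside 3.91 and 3.77 over all cells. Calb2 was not equal within this range: it averaged 23.2 in the Lypd1-rich and 49.5 in the Lypd1-poor iCON cells, and 49.5 and 61.5 in the iCKO cells. Mcu, Micu2, Micu3 and Smdt1 had log2 ratios between -0.25 and 0.33 in the same cells.

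**Figure D3:**
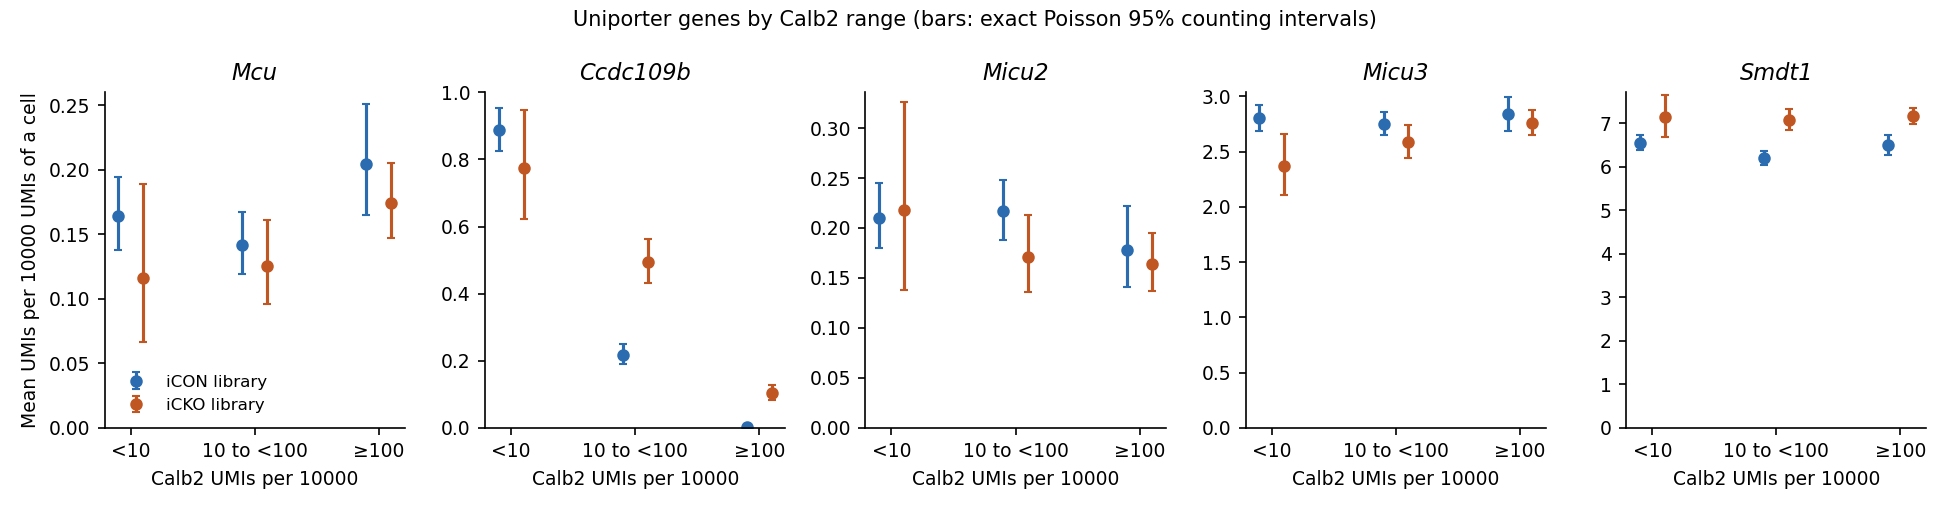
Mean UMIs per 10000 of each uniporter gene (vertical axes, one scale per gene, from 0) in cells of 3 Calb2 ranges (horizontal axes, UMIs per 10000), for the iCON library (blue) and the iCKO library (orange), with exact Poisson 95% counting intervals scaled to the mean. Ccdc109b falls along the ranges from 0.887 to 0.00374 in iCON cells and from 0.774 to 0.104 in iCKO cells.

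Over all cells, Ccdc109b averaged 0.427 ± 0.640 UMIs per 10000 (SD over 462 iCON cells, 955 UMIs) and 0.303 ± 0.554 (SD over 407 iCKO cells, 404 UMIs). The median cell was at 0 in both libraries, and the highest cells were at 3.45 and 3.25, so the cells overlapped widely. The log2 ratio of iCKO over iCON was -0.44, with a counting interval of -0.73 to -0.39. Cells with at least 10 Lypd1 UMIs per 10000 made up 39.0% of the iCON library (34.5% to 43.6%) and 31.0% of the iCKO library (26.5% to 35.7%). With the iCKO cells weighted to the iCON shares of the 3 Lypd1 ranges, an alternative chosen after seeing the data, the log2 ratio was -0.17. It was -0.27 within the Lypd1-rich cells (-0.50 to -0.14), and -0.15 and -0.19 among those with low and with intermediate Calb2, where both counting intervals included 0. It was 1.18 at intermediate Lypd1 (20 iCKO and 26 iCON cells), 1.02 at intermediate Calb2 and 1.52 at high Calb2, and equal weights for the 3 Lypd1 ranges or the 3 Calb2 ranges turned the overall value to 0.18 and 0.27.

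None of the 5 members was past the threshold between libraries, where 1.39% of 8545 genes were past it upwards and 3.24% downwards. The median log2 ratio of the members was -0.07, beside -0.02 for the 8545 genes.

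**Figure D4:**
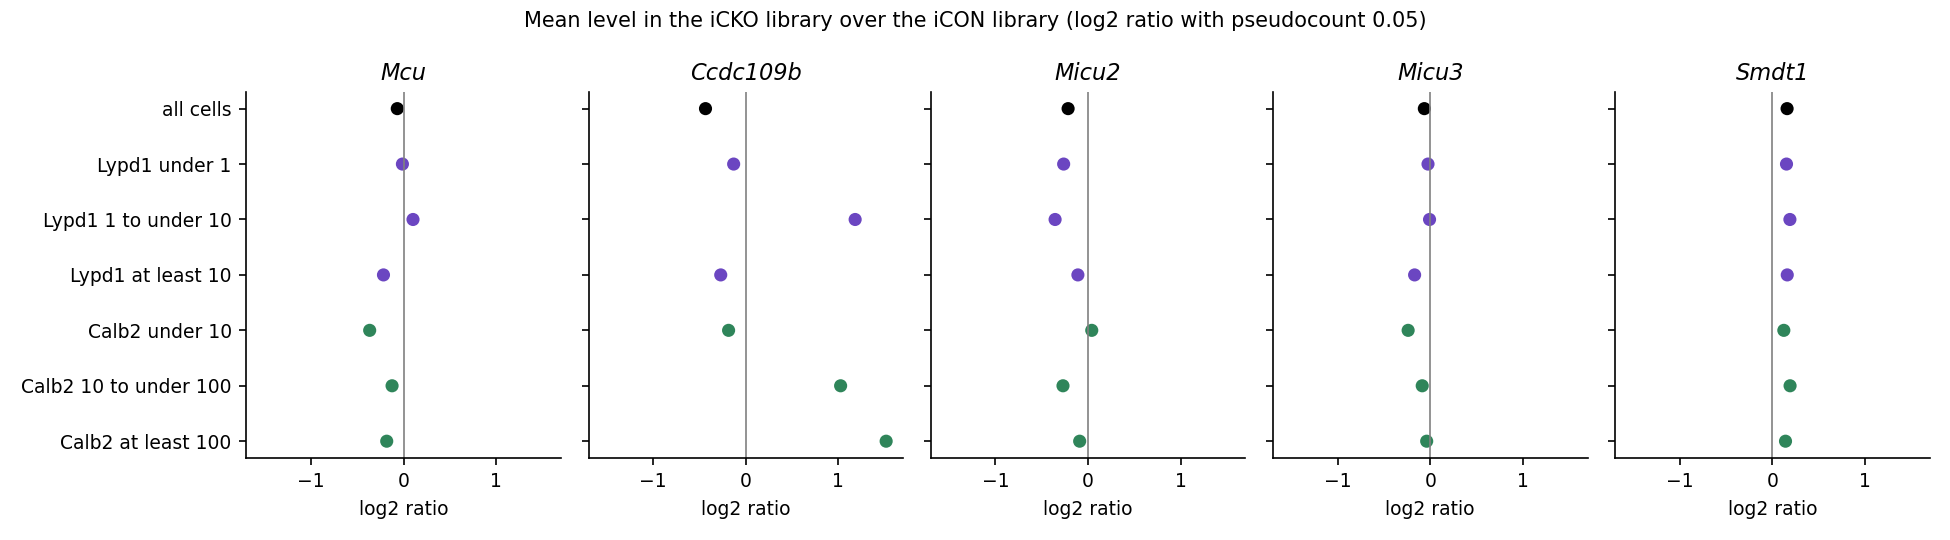
Log2 ratio of the mean level in the iCKO library over that in the iCON library, with a pseudocount of 0.05 (horizontal axes), for each uniporter gene in all cells (black) and within each Lypd1 range (purple) and Calb2 range (green). Smdt1 lies right of 0 in every range, from 0.12 to 0.19, and Ccdc109b runs from -0.27 at high Lypd1 to 1.52 at high Calb2.

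Mcu, the gene of the pore-forming subunit, averaged 0.162 ± 0.209 UMIs per 10000 (SD over 462 iCON cells, 366 UMIs) and 0.152 ± 0.214 (SD over 407 iCKO cells, 220 UMIs), a log2 ratio of -0.07 (-0.30 to 0.19). By Lypd1 range it was 0.161, 0.157 and 0.163 in the iCON library and 0.160, 0.172 and 0.133 in the iCKO library. By Calb2 range it was 0.164, 0.142 and 0.205, and 0.116, 0.126 and 0.174. The log2 ratio of Calb2-rich over Calb2-poor cells was 0.25 (-0.15 to 0.64) in the iCON library and 0.43 (-0.34 to 1.25) in the iCKO library, and intervals this wide do not show an even level. Among iCON cells with low myelin-gene RNA the Calb2 ratio was 1.16 and the Lypd1 ratio -0.92 (0.01 over all iCON cells), and among iCKO cells with Y-linked RNA the Lypd1 ratio was 0.55 (-0.19 over all iCKO cells).

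Smdt1, which joins pore and gatekeepers, was the member with a like difference between libraries in every range. It averaged 6.39 ± 1.50 UMIs per 10000 (SD over 462 iCON cells, 14132 UMIs) and 7.14 ± 1.60 (SD over 407 iCKO cells, 9835 UMIs), a log2 ratio of 0.16 (0.12 to 0.19). That ratio stood only at rank 1556 from the highest of 8545 genes, so many genes differed as much between the libraries. The quartiles of cells ran from 5.37 to 7.32 in the iCON library and from 6.06 to 8.19 in the iCKO library, so the cells overlapped. Within the 6 ranges of Lypd1 and Calb2 the log2 ratio was between 0.12 and 0.19, and the counting interval included 0 only at intermediate Lypd1. These ranges divide the same cells of the same libraries by either gene, so they do not repeat the comparison. By Lypd1 range Smdt1 was 6.43, 6.45 and 6.32 in the iCON library and 7.15, 7.36 and 7.06 in the iCKO library. By Calb2 range it was 6.56, 6.20 and 6.49, and 7.15, 7.08 and 7.17. Between libraries, the log2 ratio was 0.15 among cells with low and 0.17 among cells with high myelin-gene RNA, and 0.14 among cells with Xist and 0.17 among cells with Y-linked RNA, so it was about as large within each.

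The gatekeeper gene Micu3 was found in every cell of both libraries. It averaged 2.79 ± 0.923 UMIs per 10000 (SD over 462 iCON cells, 6214 UMIs) and 2.67 ± 0.946 (SD over 407 iCKO cells, 3663 UMIs), a log2 ratio of -0.06 (-0.14 to -0.02) that was 0.0018 without the clusters made up almost wholly of 1 library. By Lypd1 range it was 2.81, 2.69 and 2.77 in the iCON library and 2.77, 2.68 and 2.45 in the iCKO library. The log2 ratio of Lypd1-rich over Lypd1-poor cells was -0.02 (-0.12 to 0.03) in the iCON library and -0.17 (-0.28 to -0.07) in the iCKO library, and the difference between these was not tested. In the iCKO library it was -0.017 among cells with low and -0.23 among cells with high myelin-gene RNA. By Calb2 range Micu3 was 2.81, 2.75 and 2.84 in iCON cells and 2.37, 2.59 and 2.76 in iCKO cells, where Calb2-rich over Calb2-poor cells gave 0.22 (0.02 to 0.38). Micu3 also moved with myelin-gene RNA: it averaged 3.16 in low-myelin and 2.68 in high-myelin iCON cells, and 2.98 and 2.48 in iCKO cells. Low-myelin cells made up 16.1% of the Lypd1-rich and 26.6% of the Lypd1-poor cells in the iCON library, and 31.7% and 39.5% in the iCKO library, and their part in the Lypd1 difference was not tested beyond the values above.

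Micu2, the other gatekeeper gene of the set, averaged 0.207 ± 0.217 UMIs per 10000 (SD over 462 iCON cells, 452 UMIs) and 0.171 ± 0.231 (SD over 407 iCKO cells, 230 UMIs), a log2 ratio of -0.22 (-0.53 to -0.06). That ratio was -0.11 among cells with low and -0.19 among cells with high myelin-gene RNA, and -0.26 among cells with Xist and -0.05 among cells with Y-linked RNA. Micu2 was lower in low-myelin iCON cells (0.159 against 0.220), and low-myelin cells made up 21.9% of the iCON and 37.1% of the iCKO library; their part in the library ratio was not tested. The iCKO mean was below the iCON mean in every Lypd1 range, with 0.168, 0.195 and 0.174 against 0.212, 0.263 and 0.192. By Calb2 it was below in the upper ranges (0.171 and 0.164 against 0.217 and 0.178) and slightly above in the lowest (0.218 against 0.210), where 7 type II-like cells held 8 of the 23 iCKO UMIs. Among cells with low Calb2 and at least 10 Lypd1 UMIs per 10000, none of them type II-like, it was 0.147 in the iCKO and 0.196 in the iCON library. The counting interval of the library ratio excluded 0 in the lowest Lypd1 range alone, where it was -0.63 to -0.03. Lypd1-rich over Lypd1-poor cells gave -0.11 (-0.33 to 0.24) in the iCON library and 0.04 (-0.37 to 0.47) in the iCKO library. The iCON value was -0.41 among cells with Xist and 0.20 among cells with Y-linked RNA. By Calb2, Micu2 had -0.19 (-0.71 to 0.09) over all iCON cells, -1.02 among those with low and 0.08 among those with high myelin-gene RNA. In the iCKO library it had -0.32 by Calb2 over all cells, 0.13 without type II-like cells and 0.26 among cells with Xist.

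The members showed little sign of varying together from cell to cell. After thinning, Spearman's rho for the 10 pairs of members ran from -0.08 to 0.11 over 454 iCON cells and from -0.09 to 0.07 over 405 iCKO cells. The median size of rho was 0.028 and 0.039, beside 0.043 and 0.039 for all pairs of 3761 genes past the first minimum. Cells share a library and low counts limit rho, so these are descriptions, and weak values do not show that the genes vary independently. Ccdc109b had a rho with Lypd1 of 0.72 in the iCON library and 0.73 in the iCKO library, the highest among the 3761 genes in both, and of -0.58 and -0.49 with Calb2. Within the Lypd1-rich cells the rho of Ccdc109b with Lypd1 was 0.20 and 0.19.

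**Figure D5:**
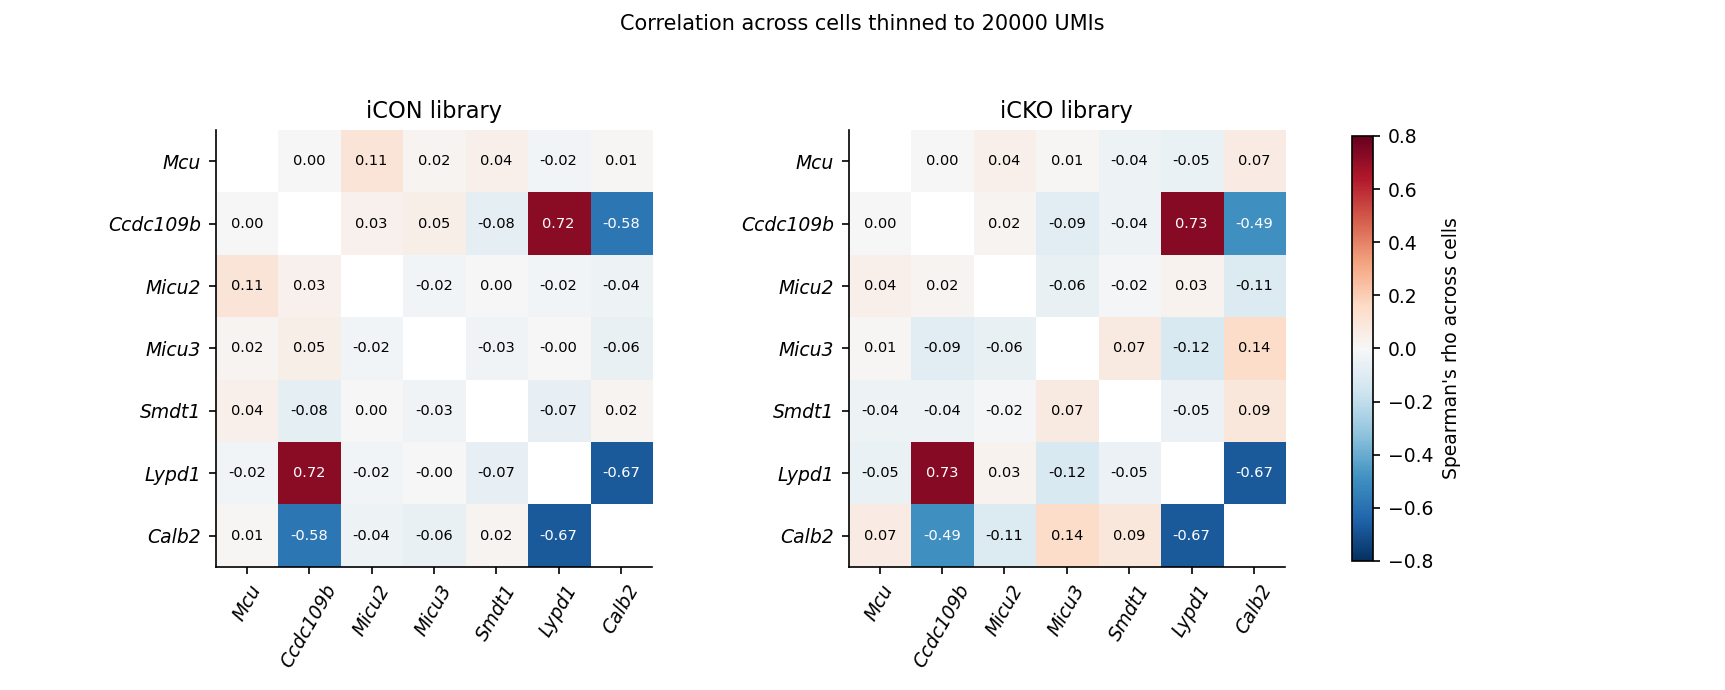
Spearman's rho across cells thinned to 20000 UMIs between the 5 uniporter genes, Lypd1 and Calb2, in the iCON library (left, 454 cells) and the iCKO library (right, 405 cells). Red is positive and blue negative; Ccdc109b stands out with Lypd1 (0.72 and 0.73) and Calb2 (-0.58 and -0.49), and pairs of uniporter genes lie between -0.09 and 0.11.

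Over the 10 classes of library, Lypd1 range and Calb2 range with at least 20 cells, the genes whose log2 mean level correlated most with that of Ccdc109b were Lypd1, Fis1 and Cyb561d2, each with a Pearson's r of 0.96. The class means of Ccdc109b ran from 0 to 1.06 UMIs per 10000, and those of Fis1, a mitochondrial fission protein gene, only from 3.63 to 4.13. For Mcu they were Znhit1, Hibadh and Rnf149 (r from 0.81 to 0.82), for Micu2 Sepp1, 2610005L07Rik and Fxyd6 (0.93 to 0.96), for Micu3 Arf1, Slmo2 and Pigp (0.89 to 0.93), and for Smdt1 Pvalb, Ppp2r2d and Clu (0.93 to 0.96). Class means spanned 0.104 to 0.201 for Mcu, 0.147 to 0.275 for Micu2, 2.32 to 2.99 for Micu3 and 6.13 to 7.62 for Smdt1. The highest class of Micu2, Micu3 and Smdt1 was the same, iCON cells with low Lypd1 and low Calb2, of which 30 of 32 were type II-like. Class means of 1 library share its cells, and they are cut by Lypd1 itself. A rank correlation kept 1 of the 3 genes for Mcu and for Ccdc109b and none for the others; for Ccdc109b it kept Fis1, while Lypd1 came to rank 15 (rho 0.85). Between members, r over these classes lay between -0.48 (Ccdc109b with Micu3) and 0.51 (Micu2 with Micu3). Without the class of mostly type II-like cells, an alternative chosen after seeing the data, Micu2 with Micu3 had 0.31, Micu2 with Smdt1 -0.62 (-0.01 with it) and Micu3 with Smdt1 -0.43 (0.01 with it), so these values depend on that class. The range was then -0.62 to 0.54 (Mcu with Micu3).

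Clusters made without the members and the marker genes showed the same pattern of Ccdc109b. The gene said to lead a cluster is that with the highest log2 ratio of means over other cells. A few cells can set such a ratio. In the cluster led by Lypd1, with 139 iCON and 19 iCKO cells, Ccdc109b averaged 1.07 and 1.20 UMIs per 10000. A cluster led by Ttn, with 66 iCON and 80 iCKO cells, averaged 0.518 and 0.547, at a mean Lypd1 of 18.9 and 18.8. Both Ib and Ic markers were on average higher in it than in other cells (mean log2 ratios 0.569 and 0.691), so it need not be 1 subtype. Its share of cells with under 1 UMI per 10000 of myelin-gene RNA was 0.904. Another led by Ttn, with 130 iCON and 11 iCKO cells, averaged 0.0451 and 0, at a mean Lypd1 of 1.25 and 0.745, and its share of such low-myelin cells was 0. A cluster led by Espn, with 47 iCKO cells and no iCON cell, averaged 0.749, at a mean Lypd1 of 20.3 and a mean Calb2 of 85.2. A cluster led by Pcp4, with 102 iCKO cells and 1 iCON cell, averaged 0.201 in its iCKO cells, at a mean Lypd1 of 9.44 and a mean Calb2 of 123. Pcp4 does not describe most of these cells. Over all 407 iCKO cells the 3 hair cell genes, Pcp4 among them, summed to a median of 0 and a 95th percentile of 0.319. The 2 clusters led by Bpifa1, rich in Calb2, held no Ccdc109b UMI in 70 and 71 iCKO cells, and averaged 0.0578 (9 UMIs in 66 cells) and 0 (30 cells) in the iCON library. Their shares of such low-myelin cells were 0 and 0.921, so clusters led by the same gene differed in myelin-gene RNA. With 1 library per genotype, a cluster mostly of 1 library may be that library, not a cell type.

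The other genes of the pathway, from lists made with earlier results of these data known, are given by their counts. Between libraries, none of the 9 uniporter partners was past the threshold, with a median log2 ratio of -0.03, and since 1.39% of 8545 genes were past it upwards and 3.24% downwards, nothing is read from lists with no gene past it. Mcur1, a uniporter regulator, averaged 0.102 UMIs per 10000 in the iCON and 0.0810 in the iCKO library, a log2 ratio of -0.21 (-0.63 to 0.05). It was higher in Lypd1-rich than in Lypd1-poor cells of both libraries, by 0.42 (0.22 to 1.05) and 0.48 (0.10 to 1.26), below the threshold. By Calb2 it had -0.39 (-1.31 to -0.06) in the iCON library and 0.31 (-0.79 to 1.94) in the iCKO library. Mcur1 was also lower in iCON cells with low myelin-gene RNA (0.0347 against 0.121), which were fewer among Lypd1-rich cells (16.1% against 26.6%), and the part of this in the Lypd1 difference was not tested. Between Lypd1 ranges no partner was past the threshold, and between Calb2 ranges Afg3l2, a protease of the inner membrane, was past it upwards (0.56) and Slc25a23, a calcium-dependent carrier, downwards (-0.64), both in the iCKO library, where 6.25% of 8545 genes were past it upwards and 10.0% downwards. Nothing is read from 1 of 9 each way. Of the 6 genes of mitochondrial calcium exchange, 5 passed the minimum of 0.1 and none was past the threshold in any comparison, where 1.39% to 10.0% of all genes were in a given direction, so with 5 genes nothing is read from this. Their medians were 0.05 between libraries and 0.22 and 0.20 between Calb2 ranges in the iCON and iCKO libraries. Ghitm, with the most UMIs of them, had a library log2 ratio of 0.05.

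Of 13 genes of the outer membrane and contacts with the endoplasmic reticulum, 12 passed the minimum and none was past the threshold between libraries (median -0.01). As 1.39% of 8545 genes were past it upwards and 3.24% downwards, nothing is read from this. Itpr1, a calcium release channel, was lower in Lypd1-rich iCON cells (-0.69), where 3.85% of 8545 genes were past the threshold downwards (2.68% in the iCKO library), and higher in Calb2-rich iCON cells (0.87), with -0.37 and 0.33 in the iCKO library. Mfn2, a mitochondrial tether, had 0.53 by Calb2 in the iCKO library, and Itpr3 -0.56 in the iCON library. By Calb2, 3.97% of all genes were past the threshold upwards and 8.04% downwards in the iCON library, and 6.25% upwards in the iCKO library. Itpr2, under the minimum, had -0.60 by Calb2 in the iCKO library. The outer membrane channel gene Vdac1, with the most UMIs of this list, had 0.45 and 0.34 by Calb2.

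The 8 calcium-regulated mitochondrial enzyme and carrier genes past the minimum, of 11, had a median log2 ratio of 0.22 between libraries, of -0.16 by Lypd1 in both libraries, and of 0.43 and 0.38 by Calb2. These 8 were all higher in Calb2-rich than in Calb2-poor cells in both libraries, from 0.27 to 0.50 and from 0.23 to 0.85, where the median of 8545 genes was -0.04 and -0.05. The share of all genes that were higher was not counted. All 10 genes of mitochondrial content, given below, were higher too, from 0.05 to 0.57 and from 0.01 to 0.49, so this was not particular to the enzyme and carrier genes. The Calb2-poor cells included 30 type II-like of 172 iCON and 7 of 38 iCKO cells. Without them, an alternative chosen after seeing the data, all 8 were still higher, from 0.06 to 0.42 (median 0.30) and from 0.09 to 0.71 (median 0.24), so that none was past the threshold in the iCON library. The minimum, set after seeing the data, left out 3 low genes of the list that did not all go this way: by Calb2, Gpd2 had -0.83 and -1.18, Slc25a24 -0.18 and -0.63 (17 and 8 UMIs in all) and Slc25a13 0.70 and 0.49. Those past the threshold were Idh3b (0.50, iCON), a citric acid cycle dehydrogenase subunit, and Pdp1 (0.85, iCKO), the calcium-stimulated phosphatase that activates pyruvate dehydrogenase, with Idh3g (0.71, iCKO). The Calb2 share of genes past the threshold upwards was 3.97% in the iCON library and 6.25% in the iCKO library. Among 8 calcium pump and sodium-calcium exchanger genes, 5 passed the minimum. Slc8a1, a plasma membrane exchanger, had -1.24 and -1.10 by Lypd1 and 1.04 and 0.88 by Calb2, the reverse of Ccdc109b, and 0.44 between libraries. Atp2b4, under the minimum with 29 and 9 UMIs, had -0.68 and 0.10 by Lypd1 and -1.04 and -0.68 by Calb2. The 10 genes of mitochondrial content had medians of 0.05 between libraries, -0.13 and -0.05 by Lypd1, and 0.23 and 0.29 by Calb2, with Cs (0.57, iCON), citrate synthase, alone past the threshold.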

How the data were processed

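Spiral ganglion neurons of 2 genotypes were profiled by single-cell 3′ RNA sequencing, 1 library each. The submitters' processing notes name Cell Ranger, Seurat and mm10. The authors deposited 1 table of values per gene and cell and 1 table naming each cell's genotype. The deposited values were the natural log of 1 plus CPM, since they summed to 1000000 in every cell once transformed back. UMI counts were recovered as whole numbers for 100% of values above 0 (within 1e-06), and 14425 genes in 869 cells were used. No cell was removed, and 1 iCON and 4 iCKO cells called doublets by Scrublet were kept. Cells were clustered with scanpy 1.11.5 and leidenalg 0.10.2 (2000 variable genes, 20 components, 15 neighbours, resolution 0.5), leaving out the uniporter genes and all markers.

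Levels were means over cells of UMIs per 10000, compared as log2 ratios with a pseudocount of 0.05. Counting intervals (95%, exact Poisson or binomial) cover counting error only. Correlations across cells, and shares of cells given after thinning, used cells thinned to 20000 UMIs (454 iCON and 405 iCKO, with 8 and 2 too shallow). Shares given at full depth used all cells of a range. No test across samples was possible with 1 library per group. Calculations were checked on simulated data. Uniporter genes, gene lists and ranges were chosen with earlier results of these data known. A gene of the lists is not reported here. Named besides the members were Lypd1, Calb2, Runx1 and list genes past a log2 ratio of 0.5. The 3 genes most like each member over classes of cells were named too. Ghitm and Vdac1 were named as the genes with the most UMIs of their lists, which was not done for the other lists. The promoter motifs, the finer Lypd1 bands, the rate per Lypd1 UMI, the cluster values and Mcur1 were added after values were seen. So were values without type II-like cells for Ccdc109b in Lypd1-poor cells, the enzyme and carrier genes and the correlations between members over classes.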

Additional observations from a re-analysis of the deposited data

How the results depend on the processing

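No paired analysis was possible because each genotype has 1 library. All values here are log2 ratios. Counting the shares of genes past the threshold, 74 alternatives between libraries, 79 by Lypd1 and 69 by Calb2 stayed within the counting error (shares within 1.5 times), and 5, 15 and 10 moved further, besides 3 between libraries that changed the sign of a value whose counting interval excluded 0. Counting also the values whose interval included 0, the sign changed in 4 of 80 alternatives between libraries, 14 of 90 by Lypd1 and 11 of 75 by Calb2, none of those by Lypd1 or Calb2 for Ccdc109b. For results outside these 3 comparisons, 7 alternatives stayed within limits of their own and 10 moved further. For pairs of members over classes the limit was a change in r under 0.1. For the genes most like a member it was at least 2 of 3 genes shared, and for the enzyme and carrier genes counts within 1.5 times. Between libraries, Smdt1 stayed between 0.12 and 0.20 over 16 alternatives (0.20 with a TMM factor), Micu2 between -0.29 and -0.05, and Mcu between -0.22 and 0.05. Micu3 came to 0.0018 without the 2 clusters that hold at least 95% cells of 1 library, where 150 cells are left out. Ccdc109b came to -0.21 with a pseudocount of 0.5, -0.25 among cells with low myelin-gene RNA, -0.62 without the 2 clusters, -0.17 weighted to the iCON Lypd1 shares, and 0.18 and 0.27 with equal weights of the Lypd1 and the Calb2 ranges. By Lypd1, Ccdc109b was 5.04 (iCON) and 5.07 (iCKO) with a pseudocount of 0.01 and 1.55 and 1.38 with 0.5. By Calb2 it was -1.46 and -1.08 with 0.5, and -3.00 in the iCKO library with cuts at 20 and 150. In the iCON library its lowest value by Calb2 over 9 alternatives was -6.03. Among cells with low myelin-gene RNA in the iCON library, the Lypd1 ratio was -0.92 for Mcu, 0.13 for Micu3 and -0.21 for Smdt1, and the Calb2 ratio 1.16 for Mcu, -1.02 for Micu2 and -0.10 for Smdt1. Among iCKO cells with low myelin-gene RNA Micu3 had -0.017 by Lypd1. Among iCON cells with Xist the Lypd1 ratio was -0.41 for Micu2, 0.056 for Micu3 and -0.13 for Smdt1, and among those with Y-linked RNA 0.20 for Micu2 and 0.10 for Smdt1. Among iCKO cells with Y-linked RNA it was 0.55 for Mcu and -0.32 for Micu3. By Calb2 in the iCON library, Micu3 had -0.092 among Xist cells and 0.16 among Y-linked cells, Smdt1 had -0.086 among Y-linked cells, and Smdt1 had 0.051 with cuts at 20 and 150. The cause was not tested for any of these. By Calb2 in the iCKO library, the splits by Y-linked RNA and by low and high myelin-gene RNA left fewer than 20 cells in a range and give no value. The genes most like a member depended on the measure, as given with them. Depth limits Mcu and Micu2 most, with 220 and 230 UMIs in the iCKO library.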

Other observations

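Type II-like cells (30 iCON, 7 iCKO) differed from the other cells in some members. Ccdc109b averaged 0.145 UMIs per 10000 in type II-like against 0.447 in other iCON cells, a log2 ratio of -1.35 (counting interval -2.60 to -0.90), and 0.125 against 0.306 in the iCKO library (-1.02, -4.19 to 0.73, from 2 UMIs). Those other cells include the Lypd1-rich ones, and the direction turned among Lypd1-poor cells alone. There Ccdc109b averaged 0.145 in type II-like against 0.00529 in other iCON cells, and 0.125 against 0.0123 in the iCKO library. Micu2 averaged 0.293 UMIs per 10000 in type II-like against 0.201 in other iCON cells, a log2 ratio of 0.45 (counting interval -0.03 to 1.13), and 0.535 against 0.165 in the iCKO library (1.44, 0.49 to 2.72), where the value rests on 8 UMIs. Smdt1 averaged 7.69 against 6.30 in the iCON library (0.29, 0.14 to 0.36) and 8.05 against 7.12 in the iCKO library (0.18, -0.10 to 0.44). Micu2 and Smdt1 were higher in type II-like cells in each library, with counting intervals that excluded 0 for Micu2 in the iCKO library and for Smdt1 in the iCON library.

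Mcur1 moved with myelin-gene RNA in both libraries. It averaged 0.0347 UMIs per 10000 in cells with low and 0.121 in cells with high myelin-gene RNA in the iCON library (18 and 201 UMIs), and 0.0356 and 0.108 in the iCKO library (17 and 95 UMIs). Micu2 was lower in the low-myelin cells as well, at 0.159 against 0.220 and 0.144 against 0.188. The part of glial RNA in these values was not tested.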
